A study of Heliothis virescens with 2 samples.

Results

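Among the HT-SuperSAGE tags of *Heliothis virescens* gut that differed between Vip–Sel and Vip–Unsel larvae, 38 belonged to signal transduction, protein kinases and calcium homeostasis. They were taken from the study's lists of called tags by functional class or by the word kinase in the protein name, with tetraspanins left out. Of these 38 tags, 18 had the class signal transduction, 12 protein kinase and 7 calcium homeostasis, and 1 was added by name alone. They stand against 5237 tags counted in both libraries and 15467 tags that were tested. Because the tags were chosen by their counts in this same contrast, their fold changes are given here as descriptions, without a test.

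Vip–Sel is a strain selected in the laboratory with Vip3Aa protoxin, a vegetative insecticidal protein of *Bacillus thuringiensis*, and is resistant to it. Vip–Unsel is the susceptible strain that was left unselected, and both were split from 1 field-derived population. The Vip–Sel insects had also been kept without selection for several generations before sampling. Guts were dissected from third-instar larvae of both strains reared on diet without Vip3Aa. Each strain gave 1 library, from 25 larvae in 5 RNA preparations that were pooled, and the spread among larvae of a strain cannot be seen. Vip–Sel was sequenced to 1056080 counts, and Vip–Unsel, the shallower library, to 268172, so a tag with equal shares has 3.94 Vip–Sel counts for each Vip–Unsel count.

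Cells read outside signals through membrane receptors, pass them on through heterotrimeric G proteins, small GTPases and adapters, and end many of these routes at kinases, which move a phosphate group from ATP to a protein or a small molecule. Calcium serves as an inner messenger, and pumps of the endoplasmic reticulum and of the plasma membrane keep it low in the cytosol. In the insect gut these pathways act in the epithelium and also in the visceral muscle and the nerves that lie around it, and a gut dissection holds all of these. In such a sample, fewer cells of a type and less RNA per cell cannot be told apart.

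A tag is the stretch of 26 bases from an NlaIII site, CATG, of the cDNA. Shown here are the tags that carry most of the counts, those called higher in Vip–Sel and the one with the lowest fold change. The tags of both arginine kinase and both EPS8-like positions are included. All are given as they were counted, with the anchoring CATG in capitals.
Tag_45, arginine kinase: CATGggactcaccgagtacgacgccg
Tag_1720, arginine kinase: CATGcagatgggtggtgacctgaagc
Tag_159, EGF receptor kinase substrate 8-like: CATGcccggccaccagctgttcgcgc
Tag_2143, EGF receptor kinase substrate 8-like: CATGcgcagtgcgcgccgcgtgcccg
Tag_49, plexin A3: CATGtgagctcgccggcgagcgaggc
Tag_869, LMBR1L: CATGcgggcgctgcgcgtgctgccgc
Tag_141, G(s) subunit alpha: CATGctggcggcgcgctactcgccgc
Tag_417, G protein subunit beta-5: CATGcgcacggggcaggccgtgcagg
Tag_667, signal transducing adapter molecule 2: CATGcggcgcctcgcgcaccccgacc
Tag_4310, venus kinase receptor: CATGtggcgcgcaggcgtcgcgtgcg

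By the call of the study, 36 of the 38 tags were underexpressed (UE) in Vip–Sel and 2 were overexpressed (OE). The call asks for an exact one-sided probability under 0.05, with the smaller tail taken for each tag. It also asks for a fold change (FC) of the Vip–Sel share over the Vip–Unsel share of at least 2.5 for OE or at most 0.4 for UE. Over the 15467 tested tags 27.0% were called UE and 6.70% OE, and over the 5237 tags counted in both libraries 30.0% were UE and 8.02% OE. These shares were computed here and are not the study's. The former include calls of tags absent from a library, 4169 UE and 1037 OE in all. The study's lists are shorter, close to the 1570 UE and 420 OE calls among tags counted in both libraries. The rule took called tags only, so nothing is read from the members' count against these shares. The median FC of the 36 UE tags was 0.169, beside a median of 0.127 over all UE tags counted in both libraries and 0.472 over all tags counted in both libraries. Of the 36 UE tags, 14 lay below the median of all UE tags.

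The calls rested on very different numbers of counts. Only 6 of the 38 tags had 100 or more counts in the libraries together, and 17 of the 36 UE tags had fewer than 10. The median UE tag had 3 Vip–Sel and 6 Vip–Unsel counts, and 6 UE tags had a single Vip–Sel count. At these totals a tag with 1 Vip–Sel count was called UE from 2 Vip–Unsel counts, whereas a tag with 1 Vip–Unsel count was called OE only from 20 Vip–Sel counts. In 6 UE tags the raw count was higher in Vip–Sel than in Vip–Unsel and in 2 it was equal, so these calls came from the difference in library totals. The exact 95% interval of the FC covers counting error only, since each strain gave 1 library. Amplified reads are not independent molecules, so it can be too narrow even for that. This interval reached above 1 in 10 of the 36 UE tags and stayed at or below 0.4 in 7.

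**Figure D1:**
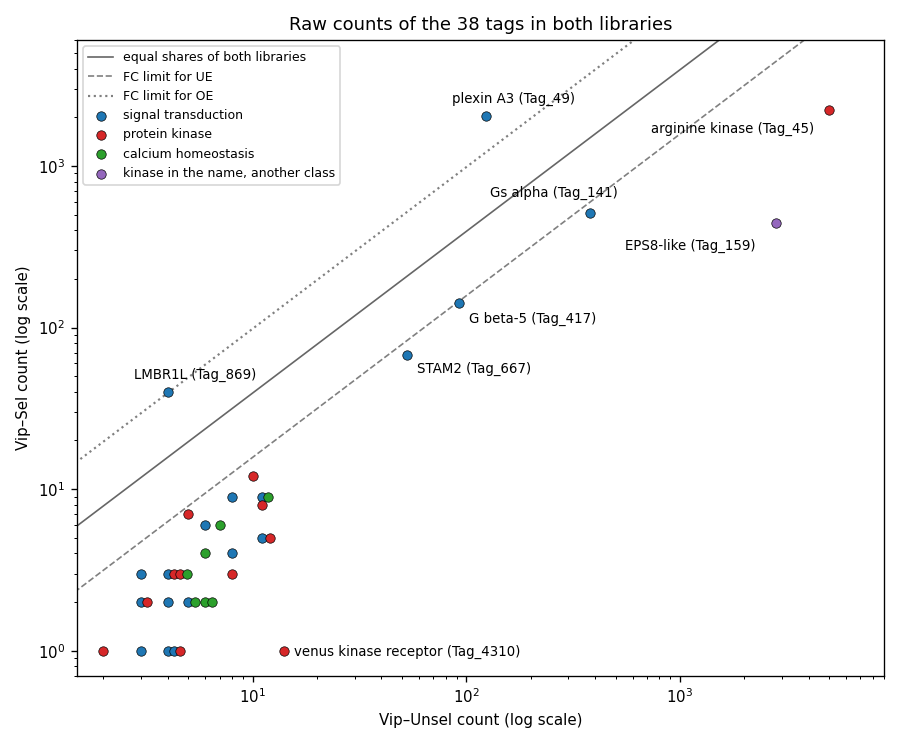
Raw counts of the 38 tags, with the Vip–Sel count on the vertical axis and the Vip–Unsel count on the horizontal axis, both on a log scale. Each point is a tag coloured by its class, tags with the same counts are shifted slightly to the right, and lines mark equal shares and the FC limits of 0.4 and 2.5. Tag_45 (2223 and 5004 counts) and Tag_159 (442 and 2801 counts) lie far below the line of equal shares, and most other tags have fewer than 20 counts.

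A single tag held most of the counts in the signal transduction and in the protein kinase sum, but not in the calcium homeostasis sum. The 18 signal transduction tags summed to 2848 Vip–Sel counts (0.270% of the library) and 726 Vip–Unsel counts (0.271%), a ratio of 0.996 (95% interval 0.918 to 1.08). The sum was near equal because Tag_49 alone supplied 2040 of the Vip–Sel counts, and without it the ratio was 0.340. The 12 protein kinase tags summed to 2269 Vip–Sel counts (0.215%) and 5081 Vip–Unsel counts (1.89%), a ratio of 0.113 (0.108 to 0.119), and 98.3% of these counts were of Tag_45. The other 11 kinase tags held 46 Vip–Sel and 77 Vip–Unsel counts, with a ratio of 0.152 (0.103 to 0.221). The 7 calcium homeostasis tags summed to 28 Vip–Sel and 45 Vip–Unsel counts, a ratio of 0.158 (0.0949 to 0.259), with no tag above 27.4% of them.

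**Figure D2:**
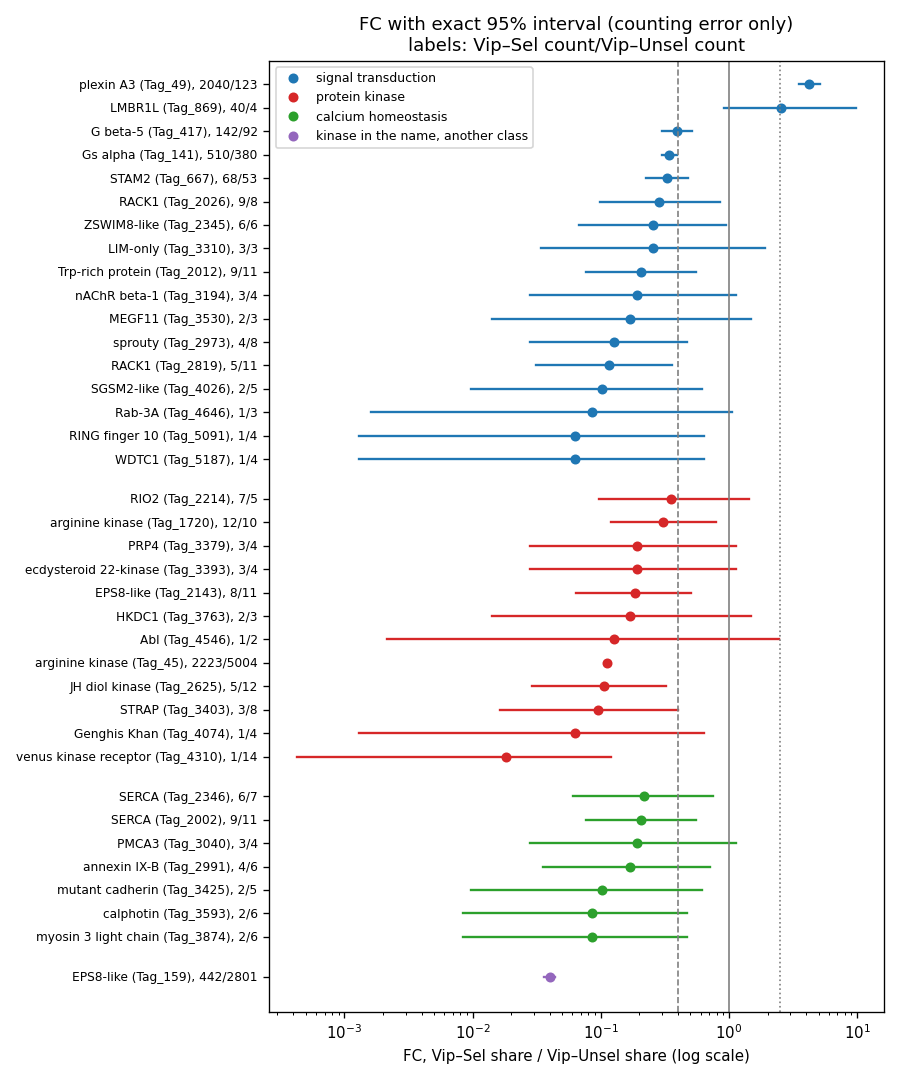
FC of 37 of the tags (Vip–Sel share over Vip–Unsel share, log scale) with its exact 95% interval, by class, with both raw counts in the label. Vertical lines mark 1 and the limits of 0.4 and 2.5. Tag_45, Tag_159 and Tag_49 have narrow intervals, while those of Tag_4546 (0.00215 to 2.44) and other tags of few counts span 1.

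Plexin A3 and LMBR1L were the tags called OE. Plexins are the receptors of semaphorins, known for guiding axons and cell migration. Tag_49 of plexin A3 had 2040 counts in Vip–Sel, against 123 counts in Vip–Unsel, an FC of 4.21 (3.51 to 5.09). It kept an FC above 2.5 under each scale used, with 8.99 after TMM scaling. Tag_869 of LMBR1L, in humans a membrane protein named as a lipocalin receptor, had 40 Vip–Sel and 4 Vip–Unsel counts. Its FC was 2.54 (0.918 to 9.77), and the call ended with 1 Vip–Sel count less or 1 Vip–Unsel count more. With the tags of the same first 24 bases added its log2 FC was 1.19, below the limit, and the call was also lost with a two-sided Fisher's exact test and with Benjamini-Hochberg adjustment over all tested tags. By the positions listed in the study, this tag reads against the direction of its contig.

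The G protein subunits were the most abundant UE tags of the signal transduction class. The alpha subunit of Gs, which couples receptors to adenylyl cyclase, had 510 counts in Vip–Sel, against 380 counts in Vip–Unsel (Tag_141), an FC of 0.341 (0.298 to 0.390). The subunit beta-5, which in mammals pairs with regulators of G protein signalling, had 142 Vip–Sel and 92 Vip–Unsel counts (Tag_417), an FC of 0.392 (0.299 to 0.515). Both tags had more raw counts in Vip–Sel and a smaller share of its total. Tag_417 lay nearest to the FC limit of all UE members, and its call ended with 2 Vip–Unsel counts less. A tag of 82 Vip–Sel and 52 Vip–Unsel counts, with an FC of 0.4004 just above the limit, was not called. The signal transducing adapter molecule 2, which takes part in the endosomal sorting of receptors, had 68 Vip–Sel and 53 Vip–Unsel counts (Tag_667), an FC of 0.326 (0.224 to 0.476). After TMM scaling these 3 tags had FCs of 0.727, 0.837 and 0.695, and none was called.

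A small GTPase and a regulator of such proteins had few counts. Rab-3A, known for the release of synaptic vesicles, had 1 Vip–Sel and 3 Vip–Unsel counts (Tag_4646). The small G protein signaling modulator 2-like protein, of a family that switches Rab GTPases off, had 2 Vip–Sel and 5 Vip–Unsel counts (Tag_4026), an FC of 0.102 (0.00967 to 0.620).

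Receptors and modulators of receptor signalling were also at low counts. The nicotinic acetylcholine receptor subunit beta-1, part of a ligand-gated channel of the nervous system, had 3 Vip–Sel and 4 Vip–Unsel counts (Tag_3194), an FC of 0.190 (0.0279 to 1.13). MEGF11, a surface protein with EGF-like domains, had 2 Vip–Sel and 3 Vip–Unsel counts (Tag_3530), and its call ended with 1 Vip–Unsel count less. Sprouty, an antagonist of receptor tyrosine kinase signalling first known from *Drosophila*, had 4 Vip–Sel and 8 Vip–Unsel counts (Tag_2973), an FC of 0.127 (0.0280 to 0.474). Of these 3, sprouty alone had an interval below 1. As nerve markers, a pair of synaptic vesicle glycoprotein 2A-like tags was picked here by name from the same lists of called tags, so a call was given by the choice, and both were UE. They held 6 Vip–Sel and 12 Vip–Unsel counts (Tag_2351) and 13 Vip–Sel and 12 Vip–Unsel counts (Tag_1698), a summed ratio of 0.201 (0.104 to 0.383), and their part in the values of Rab-3A and the acetylcholine receptor was not tested.

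RACK1, the receptor for activated protein kinase C and a scaffold protein on the small ribosomal subunit, was present as a pair of tags on different contigs. They differ at 1 base, C13T from Tag_2819 to Tag_2026 with positions counted from 1 at the C of CATG, and this base is in capitals here.
Tag_2819, RACK1: catgctctgggaCctgaatgatggca
Tag_2026, RACK1: catgctctgggaTctgaatgatggca
Tag_2819 had 5 Vip–Sel and 11 Vip–Unsel counts, an FC of 0.115 (0.0314 to 0.360). Tag_2026 had 9 Vip–Sel and 8 Vip–Unsel counts, an FC of 0.286 (0.0978 to 0.851). The intervals of the pair overlap, and in sum they held 14 Vip–Sel and 19 Vip–Unsel counts, a ratio of 0.187 (0.0868 to 0.394). Tag_2026 lost its UE call when the tags with the same first 24 bases were added (log2 FC −0.98), among them a tag with A26G of 10 Vip–Sel and 3 Vip–Unsel counts.

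The other 5 signal transduction tags were UE at between 5 and 20 counts in the libraries together. The tryptophan-rich protein had 9 Vip–Sel and 11 Vip–Unsel counts (Tag_2012). The ZSWIM8-like protein, in mammals part of a ubiquitin ligase, had 6 counts in each library (Tag_2345). RING finger protein 10, with the domain of a ubiquitin ligase, and WDTC1, known in *Drosophila* as adipose for its part in fat storage, each had 1 Vip–Sel and 4 Vip–Unsel counts (Tag_5091, Tag_5187). The LIM-only protein, an adapter without an enzyme domain, had 3 counts in each library (Tag_3310), the least certain call of the UE tags with an exact one-sided probability of 0.0348. A tag of 6 Vip–Sel and 4 Vip–Unsel counts, at 0.0529, was just outside.

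Of the 12 tags in the class protein kinase, 5 carried the name of an enzyme or receptor that phosphorylates proteins, 5 that of a kinase of small molecules and 2 that of a protein that works with kinases. The 5 kinases of proteins together had 13 Vip–Sel and 29 Vip–Unsel counts, a ratio of 0.114 (0.0543 to 0.226). Of the 29 Vip–Unsel counts, 14 were of the venus kinase receptor, a receptor tyrosine kinase of invertebrates with a venus flytrap domain outside the cell. Its Tag_4310 had 1 Vip–Sel and 14 Vip–Unsel counts, an FC of 0.0181 (0.000429 to 0.119), the lowest of all 38 tags. The call held until 13 of the 14 Vip–Unsel counts were taken away. In the mosquito *Aedes aegypti* this receptor is bound by ovary ecdysteroidogenic hormone.

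The other kinases of proteins had at most 12 counts in the libraries together. Genghis Khan, an effector of Cdc42 in *Drosophila*, had 1 Vip–Sel and 4 Vip–Unsel counts (Tag_4074). The tyrosine kinase Abl, which acts on the cytoskeleton, had 1 Vip–Sel and 2 Vip–Unsel counts (Tag_4546), the fewest of any member. PRP4, a kinase of the spliceosome, had 3 Vip–Sel and 4 Vip–Unsel counts (Tag_3379). RIO2, which matures the small ribosomal subunit, had 7 Vip–Sel and 5 Vip–Unsel counts (Tag_2214). The calls of Abl and RIO2 ended with 1 Vip–Unsel count less, and both were lost with a two-sided Fisher's exact test or with Benjamini-Hochberg adjustment, as were those of MEGF11, the LIM-only protein and HKDC1.

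Arginine kinase held most of the counts of all 38 tags (50.8% for Tag_45). It charges the phosphoarginine store from which muscle and other tissues of invertebrates refill ATP, and its substrate is an amino acid and not a protein. Tag_45 had 2223 counts in Vip–Sel, against 5004 counts in Vip–Unsel, an FC of 0.113 (0.107 to 0.119). This was 0.210% of the Vip–Sel library and 1.87% of the Vip–Unsel library. After TMM scaling the FC was 0.241, still UE. A further tag of the same contig, Tag_1720, had 12 Vip–Sel and 10 Vip–Unsel counts, an FC of 0.305 (0.121 to 0.787), and was not called after TMM scaling.

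Markers of muscle, gut epithelium and epidermis were picked here by protein name from the study's lists, which hold called tags only, so each had to be UE or OE. The 4 muscle tags were all UE and summed to 354 Vip–Sel and 379 Vip–Unsel counts, a ratio of 0.237 (0.205 to 0.275). Among them were myosin heavy chain with 337 Vip–Sel and 358 Vip–Unsel counts (Tag_197), muscle-specific protein 20 with 2 and 6 (Tag_3937) and tropomyosin-1 with 10 and 7 (Tag_1884). Tag_197 held 94.8% of the counts of this sum. The 6 gut epithelium markers, a few of the many digestive enzyme tags, were 4 OE and 2 UE and summed to 20.4% of the Vip–Sel library and 3.95% of the Vip–Unsel library, a ratio of 5.16 (5.06 to 5.26). HMG176 (103728 Vip–Sel and 1501 Vip–Unsel counts, Tag_3) was OE and held 46.6% of the counts of this sum. Chymotrypsin (79387 and 6961, Tag_4) was OE as well, and alkaline phosphatase (290 and 294, Tag_229) was UE. The study's lists hold further digestive enzyme tags of both directions, with a chymotrypsin-like protease, a trypsin and an alpha-amylase among the UE ones. The 4 epidermal markers were 3 UE and 1 OE, with a summed ratio of 0.394 (0.358 to 0.434). All tags of these lists were counted in both libraries, and their part in the values of arginine kinase and of the calcium proteins was not tested.

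The kinases of hormones were UE at low counts. Juvenile hormone diol kinase, which phosphorylates a breakdown product of juvenile hormone, had 5 Vip–Sel and 12 Vip–Unsel counts (Tag_2625), an FC of 0.106 (0.0292 to 0.323), and the call held until 9 Vip–Unsel counts were taken away. By its listed positions this tag reads against the direction of its contig. The ecdysteroid 22-kinase, known from *Bombyx mori* for turning ecdysteroids into inactive phosphates, had 3 Vip–Sel and 4 Vip–Unsel counts (Tag_3393). Its UE call was lost when tags 1 substitution away were added. The putative hexokinase HKDC1, of a family that phosphorylates glucose, had 2 Vip–Sel and 3 Vip–Unsel counts (Tag_3763).

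EPS8-like, a substrate of the EGF receptor kinase that caps and bundles actin filaments, was present as a pair of tags of 1 contig. Tag_159 carried the class cytoskeleton and entered by its name. It had 442 counts in Vip–Sel, against 2801 counts in Vip–Unsel, an FC of 0.0401 (0.0362 to 0.0443), or 0.0419% and 1.04% of the libraries. This was the lowest FC of the 6 abundant tags, and it stayed UE after TMM scaling (0.0855). Tag_2143, in the class protein kinase, had 8 Vip–Sel and 11 Vip–Unsel counts, an FC of 0.185 (0.0645 to 0.504). By the listed positions the tags of this pair start at the same CATG site and run in opposite directions, Tag_159 against that of the contig. Whether Tag_159 comes from the EPS8-like transcript or from a transcript of the other strand was not tested.

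STRAP, an adapter that binds receptors of the TGF-beta family, had 3 Vip–Sel and 8 Vip–Unsel counts (Tag_3403), an FC of 0.0952 (0.0163 to 0.397). Its call held until 6 Vip–Unsel counts were taken away.

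**Figure D3:**
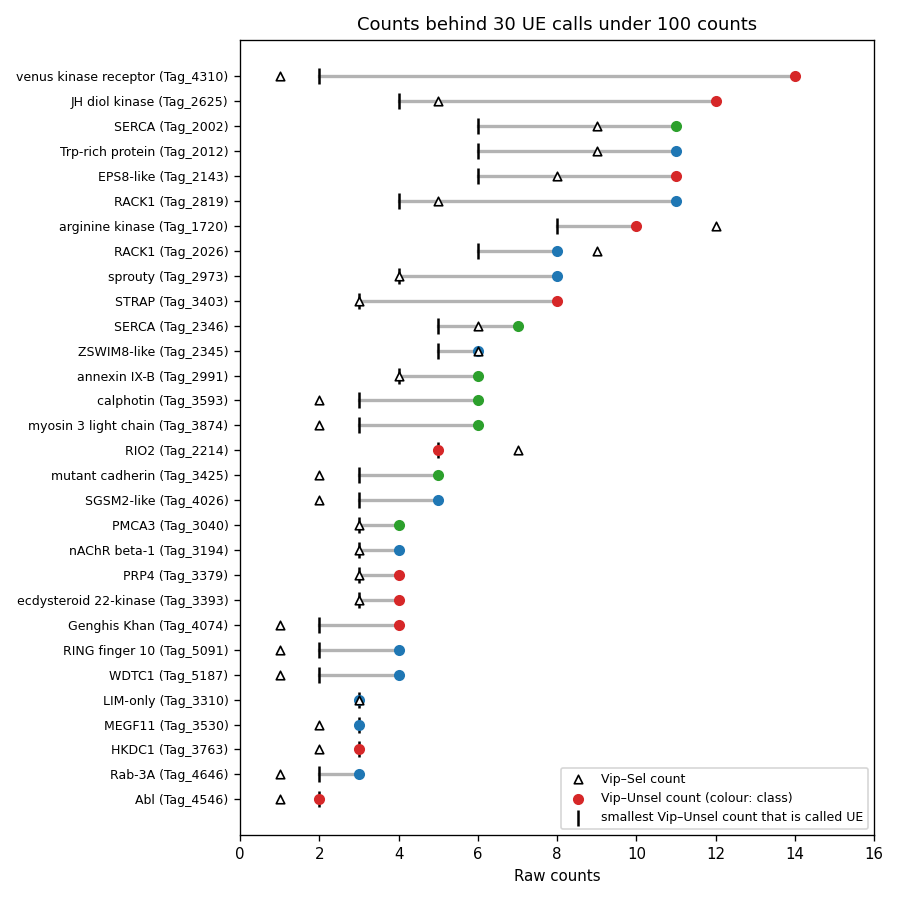
Raw counts behind 30 of the 31 UE calls with fewer than 100 counts in the libraries together. Triangles give the Vip–Sel count, coloured points the Vip–Unsel count (blue signal transduction, red protein kinase, green calcium homeostasis) and black bars the smallest Vip–Unsel count called UE at that Vip–Sel count. Where point and bar coincide, as for Abl (2 counts), HKDC1, MEGF11 and the LIM-only protein (3 counts) and RIO2 (5 counts), the call ends with 1 count less.

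In the class calcium homeostasis all 7 tags were UE, at between 7 and 20 counts each. The pumps were represented by 3 tags with 18 Vip–Sel and 22 Vip–Unsel counts, a ratio of 0.208 (0.105 to 0.406). The calcium ATPase of the sarcoplasmic and endoplasmic reticulum (SERCA), which returns calcium to the store, had 9 Vip–Sel and 11 Vip–Unsel counts on 1 contig (Tag_2002) and 6 Vip–Sel and 7 Vip–Unsel counts on another (Tag_2346). Their FCs were 0.208 (0.0761 to 0.551) and 0.218 (0.0604 to 0.756), closer to each other than their intervals are wide. The plasma membrane calcium ATPase 3, which exports calcium from the cell, had 3 Vip–Sel and 4 Vip–Unsel counts (Tag_3040) and an interval that reached 1.13, and its listed positions run against the contig.

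The other 4 calcium tags were of proteins that bind calcium. Annexin IX-B, of a family that binds membranes in the presence of calcium, had 4 Vip–Sel and 6 Vip–Unsel counts (Tag_2991), an FC of 0.169 (0.0351 to 0.714). Calphotin, known from *Drosophila* photoreceptors, and the myosin 3 light chain, a contractile protein with calcium-binding folds, each had 2 Vip–Sel and 6 Vip–Unsel counts (Tag_3593, Tag_3874), an FC of 0.0846 (0.00835 to 0.473). The mutant cadherin, of the calcium-dependent adhesion proteins, had 2 Vip–Sel and 5 Vip–Unsel counts (Tag_3425). No call of this class ended with the loss of a single Vip–Unsel count, and all 7 had an adjusted probability under 0.05 with Benjamini-Hochberg adjustment over all tested tags. The tags were chosen by the unadjusted probability of these same counts, so the adjusted values are a description and no separate support. After TMM scaling 3 of the 7 calls held. Without the myosin light chain the ratio of the class was 0.169.

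Signalling proteins that the study placed in other classes formed a separate list of 6 tags, of which 5 were UE and 1 OE. Phosphatidylinositol transfer protein alpha, which carries the lipid substrate of phosphoinositide signalling, was OE with 128 Vip–Sel and 2 Vip–Unsel counts (Tag_442), an FC of 16.3 (4.41 to 136). Guanylate cyclase 32E-like, a receptor that makes cGMP, had 75 Vip–Sel and 57 Vip–Unsel counts (Tag_641), an FC of 0.334 (0.234 to 0.480). The phosphatases, which undo the work of kinases, were UE at 5 Vip–Sel and 6 Vip–Unsel counts for the catalytic subunit of protein phosphatase 2A (Tag_2548) and 1 and 4 for a dual specificity phosphatase (Tag_5213). The 14-3-3 protein epsilon, which binds phosphorylated proteins, had 4 counts in each library (Tag_2848). The median FC of the list was 0.294.

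Apart from the RACK1 pair, whose tags are both members, the tags that differ from a member at 1 base are no members themselves. For 35 members the deposited sequence could be settled, and 32 of these had at least 1 such tag. For arginine kinase, Tag_45 was accompanied by 42 of them, with 255 Vip–Sel and 1100 Vip–Unsel counts, a ratio of 0.0589 (0.0512 to 0.0675). The most frequent changed the last base, G26A, with 104 Vip–Sel and 541 Vip–Unsel counts.
G26A of Tag_45: catgggactcaccgagtacgacgccA
For EPS8-like, Tag_159 had 39 such tags with 52 Vip–Sel and 493 Vip–Unsel counts, a ratio of 0.0268 (0.0197 to 0.0357), and for plexin A3, Tag_49 had 35 with 160 Vip–Sel and 20 Vip–Unsel counts, a ratio of 2.03 (1.27 to 3.42). The near tags lay on the same side of 1 as the member in each of these, at a lower ratio than the member. Near tags can be reads of the member with a sequencing or adapter-ligation error, which was not tested. Their direction is therefore no independent evidence for that of the member. It also differed in some members of few counts, such as Tag_2012, a UE member whose near tags were counted in Vip–Sel only.

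The lower ratio follows from a larger share of near tags in Vip–Unsel. Of the counts of Tag_45 and its near tags, 10.3% (9.12 to 11.6) in Vip–Sel and 18.0% (17.1 to 19.0) in Vip–Unsel were in near tags, intervals that do not overlap. For Tag_159 the shares were 10.5% (7.96 to 13.6) in Vip–Sel and 15.0% (13.8 to 16.2) in Vip–Unsel, and for Tag_49 they were 7.27% (6.22 to 8.44) in Vip–Sel and 13.99% (8.76 to 20.8) in Vip–Unsel. All 6 abundant members, taken at 100 or more counts in the libraries together, had the higher share in Vip–Unsel. So did 96 of 109 tags with at least 100 counts in each library and no more abundant tag 1 substitution away, a stricter limit that not all 6 members meet. Over these 109 tags the median share was 17.2% in Vip–Sel and 23.5% in Vip–Unsel. For Tag_45, 71.8% of the near counts of Vip–Sel and 85.8% of those of Vip–Unsel had their change in the last 2 bases of the tag.

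**Figure D4:**
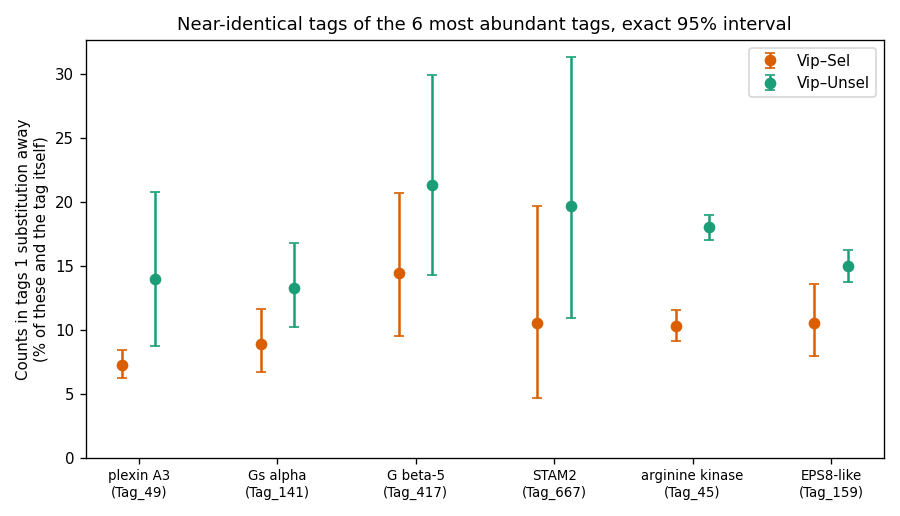
Share of counts in tags 1 substitution away, as a percent of these and the tag itself, in Vip–Sel (orange, left of each pair) and Vip–Unsel (green, right). The 6 tags with at least 100 counts in the libraries together are shown. Bars are exact 95% intervals for counting error. The share is higher in Vip–Unsel for all 6 tags, and the intervals do not overlap for plexin A3, arginine kinase and EPS8-like Tag_159.

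The base composition of the members spanned most of the range found in these libraries. Over the 22 bases after CATG, the UE members had a median of 59.1% G and C (18.2% to 86.4%, 33 tags), the OE members 77.3% and 86.4%, and all tags counted in both libraries a median of 68.2%. The UE calcium tags had the lowest median, 47.7%. The FC of all shared tags varied with composition, with a median log2 FC of −1.98 for tags of at most 31.8% G and C and −0.65 for those of at least 86.4%. The part of composition in single values was not tested beyond centring on tags of the same composition. That centring does not separate composition from the lower FC of shared tags as a whole.

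The reference scale decided many of the calls. TMM scaling takes the middle of the tags counted in both libraries as unchanged, and the median log2 FC of these tags was −1.08. It raised every log2 FC by 1.09. The calls over all tested tags then were 2590 OE and 3237 UE, against 1037 OE and 4169 UE with library totals. Of the members, 15 were then UE and 2 OE. The UE calls that held were 5 of signal transduction (RING finger protein 10, WDTC1, the SGSM2-like protein, RACK1 Tag_2819 and sprouty), 6 of protein kinases (venus kinase receptor, Genghis Khan, STRAP, juvenile hormone diol kinase, arginine kinase Tag_45 and EPS8-like Tag_2143), 3 of calcium homeostasis (calphotin, the myosin 3 light chain and the mutant cadherin) and EPS8-like Tag_159. Against tags of the same composition 14 of 33 remained UE. This centring takes the median log2 FC of shared tags of that composition as unchanged. It therefore also takes out the lower FC of shared tags as a whole, and the lost calls cannot be ascribed to composition alone. No member changed direction under TMM scaling, and centring on composition turned 1, the LIM-only protein Tag_3310, to a log2 FC of 0.79 against 14 tags of its composition.

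**Figure D5:**
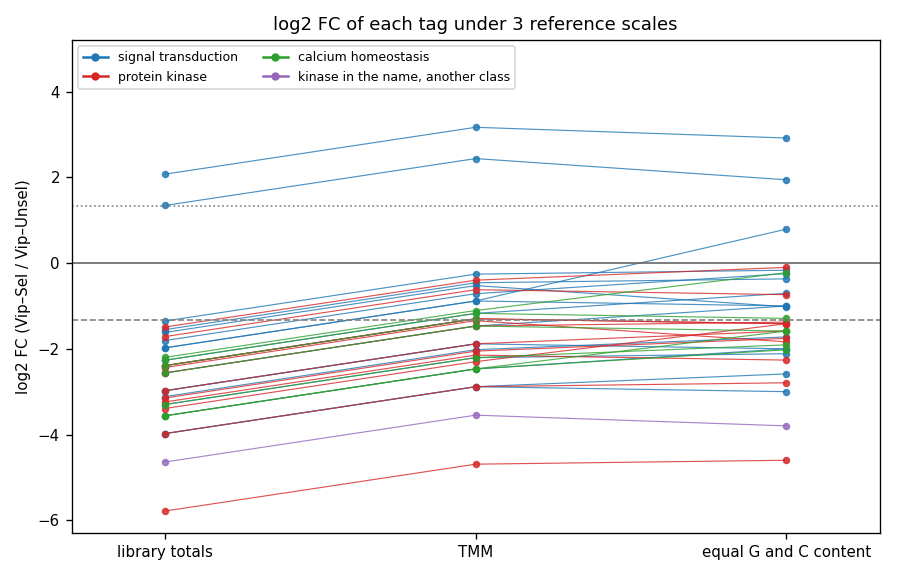
log2 FC of each tag (Vip–Sel over Vip–Unsel) with library totals, after TMM scaling and centred on tags of the same G and C content, coloured by class; lines join the values of a tag, and broken lines mark the FC limits. TMM scaling lifts all tags by 1.09, and 15 UE calls and both OE calls remain. The 3 tags without a settled sequence have no value at the right.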

How the data were processed

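Gut RNA of Vip–Sel and Vip–Unsel larvae was measured by HT-SuperSAGE in 1 library per strain. The authors assigned reads to libraries by their index, filtered out those of low quality or incomplete and deposited raw counts of identical tags of 26 bases, without alignment. Functional classes, protein names and contig positions came from the study's supplementary lists. Their text was read from page images, so each member was joined to the deposited tags by its counts and the nearest sequence: 35 sequences were settled and 3 are known by counts only. The FC used counts normalized to 268000, with 1 in place of 0, over tags of at least 2 counts. Probability was that of Audic and Claverie, exact, one-sided and unadjusted, with the tail chosen by the direction of each difference. It compares these libraries and not the strains. Intervals are Clopper-Pearson at 95%. The members and the marker lists were chosen with earlier results of these data known, and every member is named but 1. The values of that member and of 1 tag of a separate list are not reported here, although they are part of sums and counts. The call was run on simulated counts with counting error only, modelled on tags of at least 10 counts in the libraries together. The 17 UE members with fewer counts were not covered by it. Alternatives were another test, adjustment, thresholds, scalings (edgeR 4.0.16 TMM), sums of near tags and centring on base composition. Python 3.11.15, scipy 1.17.1, numpy 2.4.6, matplotlib 3.10.9 and R 4.3.3 were used. A reference genome was not used here.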

Additional observations from a re-analysis of the deposited data

How the results depend on the processing

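No paired analysis was possible because each strain had 1 library. The 36 UE calls were 19 among tags of at least 10 counts, 15 with TMM scaling and 14 of 33 with centring on G and C content. They stayed between 28 and 36 with Fisher's exact test, adjustment, other FC limits and totals without the 10 most abundant tags. Each of both sums of near tags kept 32 of the 33 UE calls with a settled sequence. Of the 2 OE calls 1 was left, Tag_49, with Fisher's exact test, adjustment, an FC limit of 4 and both sums. The signal transduction ratio of 0.996 moved to 2.13 with TMM scaling, 1.21 without the 10 most abundant tags, 1.92 with centring and 0.340 without Tag_49. The protein kinase ratio of 0.113 moved to 0.242 with TMM scaling, 0.138 without the 10 most abundant tags, 0.103 and 0.104 with the sums over 24 bases and over 1 substitution, 0.297 with centring and 0.152 without Tag_45. The calcium homeostasis ratio of 0.158 moved to 0.337 with TMM scaling and 0.422 with centring. Like TMM scaling, centring also takes out the lower FC of shared tags as a whole, so these moves are not of composition alone. The LIM-only protein Tag_3310 turned to a log2 FC of 0.79 with centring, the only change of direction among the members under these scalings and sums. Leaving out a replicate was not possible. Of the UE members 17 had under 10 counts, and 5 calls ended with 1 Vip–Unsel count less.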
